A study of Homo sapiens with 14 samples.

Results

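The genes described here encode 10 serine and arginine rich (SR) splicing factors, SRSF1, SRSF2, SRSF3, SRSF4, SRSF5, SRSF6, SRSF7, SRSF9, SRSF10 and SRSF11. They were taken by gene symbol from 26171 entries of the K562 table and 19196 of the SIGM5 table, and all 10 were present in both. The rule used symbols alone, but the family itself was selected on measured expression, with the changes between these groups already known. The calls below therefore describe the fits over all genes and are not independent evidence about the family.

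Polyadenylated RNA was sequenced from 14 libraries in 7 groups of 2, all collected after 24 h of treatment. SIGM5, a myelomonocytic leukaemia line, received DMSO or 12.5 µM TETi76, an inhibitor of the TET dioxygenases that oxidise 5-methylcytosine. In K562, an erythroleukaemia line, the TET2+/+ clone K01 received DMSO, 12.5 µM TETi76, 100 µM ascorbate (vitamin C, a cofactor of TET enzymes), or TETi76 with ascorbate. The TET2-/- clone K18 received DMSO alone. Each TET2 genotype was 1 clone, so genotype and clone cannot be told apart. The labels do not say that replicates were separate cultures, so p-values rest on differences between libraries of the same group, which can be technical. In K562 that spread was pooled over all 5 groups, and in both lines it was drawn toward the spread of other genes.

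SR proteins bind short exonic sequences through an RNA recognition motif and recruit the splicing machinery through a domain rich in arginine and serine. Phosphorylation of that domain by the SRPK and CLK kinases sets their location and activity, and several members shuttle to the cytoplasm with the mRNA. Many SR genes limit their own expression through alternative exons that send the transcript to nonsense-mediated decay, and SRSF2 is recurrently mutated in myeloid neoplasms. The gene-level values used here do not separate such isoforms: in the GENCODE v29 annotation, 6 of 12 SRSF7 transcripts and 3 of 9 SRSF1 transcripts are of the nonsense-mediated decay class.

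The promoters of SRSF7, SRSF3, SRSF4 and SRSF1 are shown because these genes were called higher together in TETi76-treated K01 cells. SRSF2 was called higher with them but had no promoter window in the RefSeq set used. The windows span 250 bases before to 50 after the RefSeq start on GRCh38.p14, on the minus strand at chr2:38751312-38751611, the plus strand at chr6:36594112-36594411, and the minus strand at chr1:29181851-29182150 and chr17:58007197-58007496. SRSF7 has a further RefSeq start upstream with no match to any motif searched, and the window shown is the one with more GENCODE transcript starts (3 against 2). Capitals mark the motifs found on either strand. In SRSF7 these are TGACG and, near the start, TATAAA. In SRSF3 they are TGACG, the CCAAT box at 2 positions, and TATAAA. In SRSF4 the capitals mark the ETS site, and in SRSF1 the antioxidant response element core TGACNNNGC with a TGACG inside it, and the NRF1 site.
SRSF7: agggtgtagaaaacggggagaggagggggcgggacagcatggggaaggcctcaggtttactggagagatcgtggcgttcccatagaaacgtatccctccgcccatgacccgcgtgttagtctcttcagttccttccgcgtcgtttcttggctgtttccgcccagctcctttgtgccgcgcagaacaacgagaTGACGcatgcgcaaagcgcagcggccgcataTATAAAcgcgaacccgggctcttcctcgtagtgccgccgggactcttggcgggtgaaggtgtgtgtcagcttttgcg
SRSF3: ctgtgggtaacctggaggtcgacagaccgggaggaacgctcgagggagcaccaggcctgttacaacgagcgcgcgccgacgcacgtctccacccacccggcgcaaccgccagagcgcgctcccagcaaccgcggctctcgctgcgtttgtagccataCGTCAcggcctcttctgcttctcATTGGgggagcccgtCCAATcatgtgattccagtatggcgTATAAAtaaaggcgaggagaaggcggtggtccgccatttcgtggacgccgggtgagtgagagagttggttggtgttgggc
SRSF4: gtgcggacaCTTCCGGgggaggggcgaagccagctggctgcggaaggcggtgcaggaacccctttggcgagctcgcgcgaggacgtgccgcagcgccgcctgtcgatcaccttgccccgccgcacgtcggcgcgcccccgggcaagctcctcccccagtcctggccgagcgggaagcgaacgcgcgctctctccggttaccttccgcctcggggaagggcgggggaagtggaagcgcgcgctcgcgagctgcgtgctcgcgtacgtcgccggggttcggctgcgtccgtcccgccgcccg
SRSF1: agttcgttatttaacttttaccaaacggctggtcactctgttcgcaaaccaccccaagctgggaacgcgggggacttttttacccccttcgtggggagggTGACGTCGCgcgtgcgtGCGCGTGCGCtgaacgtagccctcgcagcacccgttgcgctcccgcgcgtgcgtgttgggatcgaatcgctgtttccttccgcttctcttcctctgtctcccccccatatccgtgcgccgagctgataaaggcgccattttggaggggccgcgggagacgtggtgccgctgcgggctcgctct

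TGACG, the core of the cyclic AMP response element, was present in 6 of the 11 windows of 9 members, and in 24.6% of all 35116 RefSeq promoter windows of the same length. TATAAA was present in 3 member windows, those of SRSF11, SRSF7 and SRSF3, and in 11.5% of all. CCAAT was present in the window of SRSF3 alone and in 34.6% of all windows. The ETS site CCGGAAG was found in SRSF4 and SRSF5 and in 10.3% of all windows, and the NRF1 site in SRSF10, SRSF9 and SRSF1 and in 5.78% of all. The antioxidant response element core TGACNNNGC was found in SRSF5 and SRSF1 and in 13.3% of all. No member window held TGATGNAA (3.62% of all), the E-box CACGTG (7.26%) or the E2F site TTTGGCGC (0.652%). These are letter matches, and binding was not measured.

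SIGM5 totals ran from 18893636 to 23639198 counts. K562 values are in FPKM (read fragments, corrected for transcript length and sequencing depth), so depth there was estimated. Values of at most 0.15 FPKM were assumed to be mostly single reads, with lengths from genes of 1 annotated transcript. The estimate was about 4.76 to 9.05 M reads (M, mega), lowest in replicate 1 of K01 with both agents. All 13 erythroid markers were at 1 FPKM or more in every K562 group. All 13 myelomonocytic markers were at 1 CPM (counts scaled by library size) or more in SIGM5, where HBG1, HBG2, HBE1 and HBZ had no counts. In SIGM5, 2 of the 13 erythroid markers still reached 1 CPM, TFRC (438.3 to 514.0 CPM) and EPOR (6.44 to 8.16 CPM). From 4 to 9 myelomonocytic markers reached 1 FPKM in each K562 group, among them LYZ at 22.0 to 35.4 FPKM. Of 6 lymphoid and 7 stromal, endothelial or epithelial markers, 1 or 2 of each reached 1 FPKM per K562 group. The highest were CD3D (11.3 to 38.1 FPKM) and EPCAM (22.6 to 49.6 FPKM). The summed erythroid level was 8943 to 10277 FPKM in K01 with DMSO, 8486 to 8785 with TETi76, 10364 to 10842 with ascorbate, 7302 to 7530 with both agents and 4912 to 5106 in K18, and its part in the SR values was not tested. TET2 itself stood at 3.13 ± 0.255 FPKM in K18 and 2.19 ± 0.289 FPKM in K01 with DMSO (SD, n = 2), a log2 difference of 0.37 (limma adjusted p = 0.314). A gene total is no check of the deletion where the edited transcript is still made.

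In untreated K01 cells the SR genes spanned a narrow band of length-scaled levels, with a single gene far below it. SRSF2, the prototype of nuclear speckle proteins, was highest at 119.8 ± 0.0714 FPKM (SD, n = 2). SRSF3, the smallest SR protein, followed at 109.1 ± 9.90 FPKM and SRSF5 at 98.95 ± 12.1 FPKM, and the ranges of that pair overlapped. SRSF9 at 83.0 ± 3.86 FPKM stood above SRSF1 at 66.0 ± 1.09 FPKM and SRSF11 at 65.2 ± 5.91 FPKM, which overlapped. SRSF7 at 57.4 ± 1.23 FPKM, SRSF4 at 47.7 ± 1.71 FPKM and SRSF6 at 39.0 ± 3.98 FPKM came next without overlap, and SRSF10 stood at 0.478 ± 0.117 FPKM. Over the 10 K562 libraries the mean of SRSF3 exceeded that of 95.7% of the genes tested and that of SRSF6 exceeded 84.8%, while SRSF10 did not reach 1 FPKM in any library.

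The order changed between groups. With TETi76, SRSF7 moved from the seventh to the fourth place of K01, above SRSF1, SRSF9 and SRSF11, and SRSF3 and SRSF2 overlapped at the top. With both agents SRSF3 led at 141.2 ± 1.87 FPKM, clear of SRSF2 at 97.7 ± 1.01 FPKM and SRSF5 at 96.0 ± 1.49 FPKM, which overlapped (SD, n = 2). In K18 the pair SRSF3 and SRSF2 overlapped at the top and SRSF9 stood above SRSF5. SRSF6 remained the lowest of the 9 abundant members in all 5 K562 groups.

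**Figure D1:**
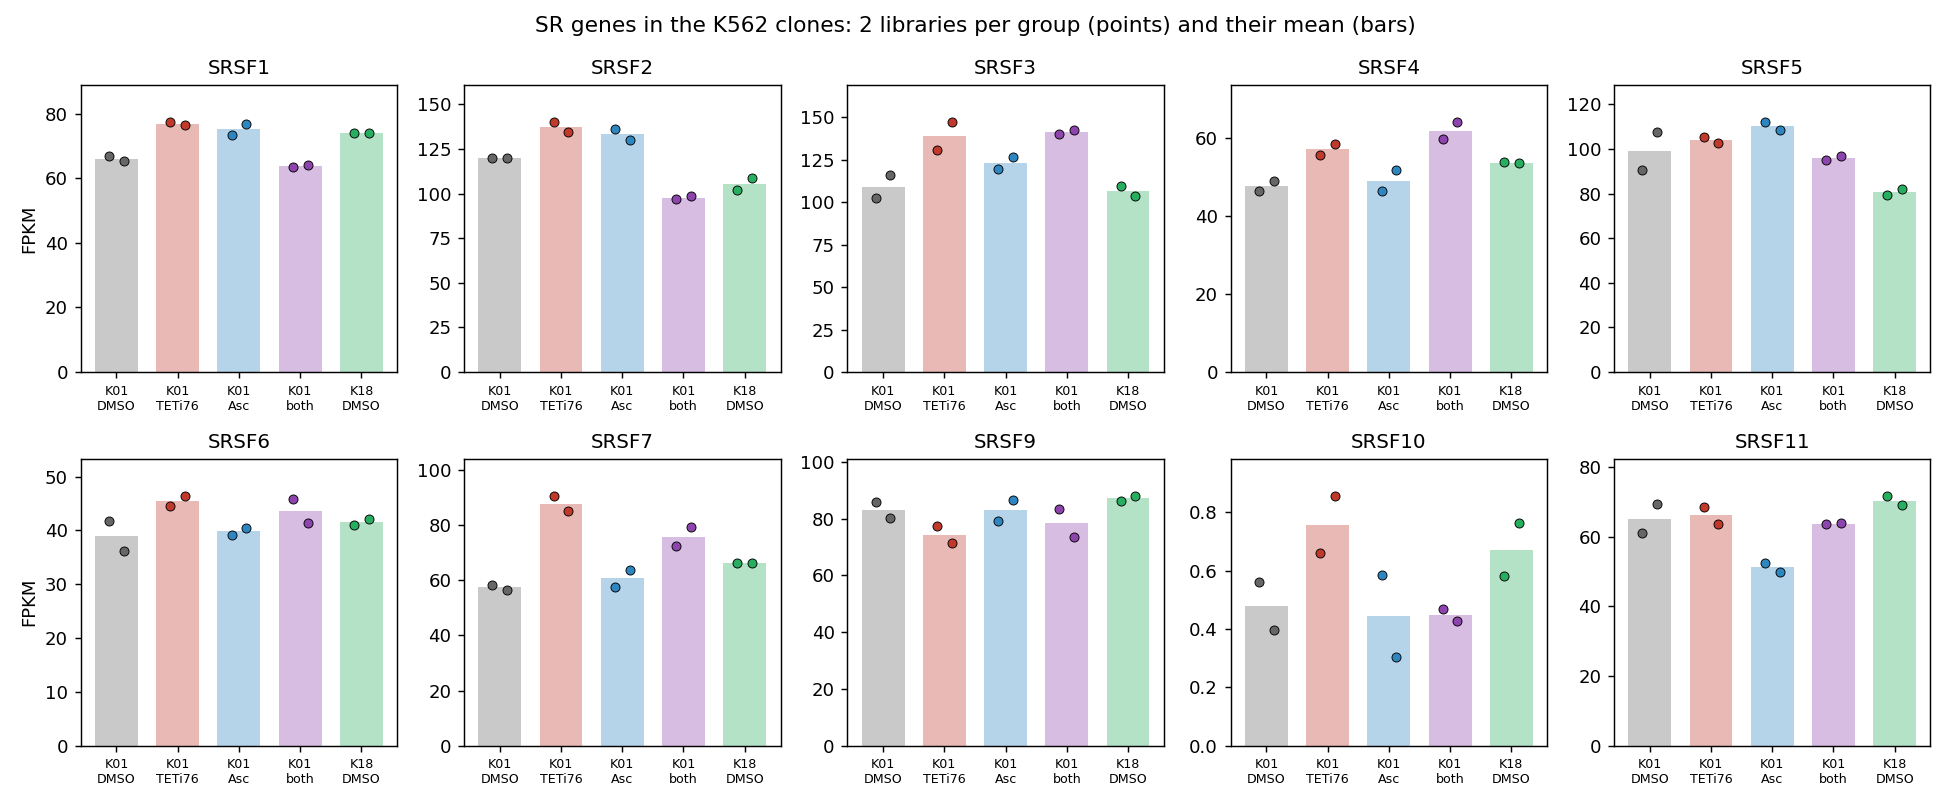
FPKM of the 10 SR genes (vertical axes, from 0, a separate scale per panel) in the 5 K562 groups, as 2 libraries (points) and their mean (bars), where Asc is ascorbate and both is TETi76 with ascorbate. SRSF7 lies between 84.98 and 90.4 FPKM in K01 with TETi76 and at or below 79.05 FPKM in every other library, SRSF2 is lowest in K01 with both agents, and SRSF10 stays below 1 FPKM.

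TETi76 alone raised part of the SR family in K01 and lowered no member past the threshold. Of 9 members tested, 5 were called higher and 0 lower (limma on log2(FPKM + 1), adjusted p under 0.05 over 12538 genes), where 9.6% of all genes tested were called higher and 23.3% in either direction. The members called were SRSF7, SRSF3, SRSF4, SRSF1 and SRSF2. The median log2 change of the 9 members was 0.22, beside -0.01 for all genes tested, and 7 of 9 members had groups that did not overlap, beside 63.3% of all genes. Summed over the 10 members, the level was 672.9 and 700.3 FPKM with DMSO and 790.6 and 786.1 FPKM with TETi76.

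SRSF7 and SRSF3, small proteins that act in splicing, polyadenylation site choice and mRNA export, had the largest changes. SRSF7 measured 58.3 and 56.5 FPKM in the DMSO libraries and 90.4 and 84.98 FPKM in the TETi76 libraries. Both treated libraries were well above both controls, a log2 change of 0.60 (SE 0.08, limma adjusted p = 0.00066). SRSF3 measured 102.1 and 116.1 FPKM with DMSO and 130.9 and 146.9 FPKM with TETi76, again without overlap, a log2 change of 0.35 (SE 0.08, adjusted p = 0.0141). The SRSF7 call held in all 11 alternative settings, with an adjusted p of at most 0.00768, and the SRSF3 call was lost without DMSO replicate 1 (adjusted p = 0.0986) or without TETi76 replicate 2 (adjusted p = 0.0966).

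SRSF1, a proto-oncogenic splicing activator, and SRSF2 changed less. SRSF1 went from 66.8 and 65.2 FPKM to 77.3 and 76.6 FPKM, a log2 change of 0.22 (SE 0.06, limma adjusted p = 0.0272). SRSF2 went from 119.8 and 119.9 FPKM to 139.9 and 134.3 FPKM, a log2 change of 0.19 (SE 0.06, adjusted p = 0.0432). The treated libraries of each gene were above both of its controls. Neither call held without any 1 of the 4 libraries compared, where adjusted p ran from 0.0825 to 0.124 for SRSF1 and from 0.087 to 0.187 for SRSF2.

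The members SRSF4, SRSF5 and SRSF6 were mixed. SRSF4 went from 46.5 and 48.9 FPKM to 55.6 and 58.5 FPKM, a log2 change of 0.25 (SE 0.08, limma adjusted p = 0.0441) that was lost without any 1 of the 4 libraries (adjusted p from 0.0877 to 0.192). SRSF6 measured 41.8 and 36.2 FPKM with DMSO and 44.4 and 46.4 FPKM with TETi76, groups that did not overlap, but its log2 change of 0.22 (95% interval 0.02 to 0.42) missed the threshold at an adjusted p of 0.114. Quantile normalization called it higher, at 0.32 (adjusted p = 0.0335). SRSF5 measured 90.4 and 107.5 FPKM with DMSO and 105.5 and 102.6 FPKM with TETi76, and these groups overlapped. Its log2 change was 0.08 (95% interval -0.10 to 0.26).

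SRSF9 and SRSF11 also missed the threshold. SRSF9, known to repress as well as activate splice sites, measured 85.7 and 80.2 FPKM with DMSO and 77.3 and 71.4 FPKM with TETi76, the only member with a negative estimate (log2 change -0.16, 95% interval -0.35 to 0.03, limma adjusted p = 0.215). GATC, on the opposite strand, overlaps 46.2% of the exonic bases of SRSF9 and measured 32.8 to 40.1 FPKM over the K562 libraries, and reads of the pair may not be separated. SRSF11 measured 60.98 and 69.3 FPKM and then 68.6 and 63.6 FPKM, overlapping groups with a log2 change of 0.02 (95% interval -0.16 to 0.20). SRSF10, a splicing repressor when dephosphorylated, was below the 1 FPKM filter and had no test, with 0.561 and 0.395 FPKM against 0.660 and 0.856 FPKM. The related gene SRSF8 was not called (log2 change -0.10, adjusted p = 0.608), and SRSF12 was between 0 and 0.638 FPKM over the 10 libraries.

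In the presence of ascorbate TETi76 moved SR genes in both directions. Against ascorbate alone, 3 of 9 members were called higher (SRSF4, SRSF7 and SRSF11) and 2 lower (SRSF2 and SRSF1), beside 12.8% of all genes called higher, 17.8% lower and 30.7% in either direction (limma, adjusted p under 0.05). This comparison shares no library with that of TETi76 against DMSO, but both draw their spread from the same fit of 10 K562 libraries. The median log2 change of the 9 members was 0.13, beside -0.01 for all genes, and 8 of 9 had groups that did not overlap, beside 62.9% of all genes.

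SRSF2 measured 136.2 and 130.1 FPKM with ascorbate and 97.0 and 98.5 FPKM with both agents. The treated libraries were the lowest of the 10 K562 libraries for this gene, a log2 change of -0.44 (SE 0.06, limma adjusted p = 0.00057) that was called in all 11 alternatives, with estimates from -0.47 to -0.25. MFSD11 lies on the opposite strand and overlaps 36.7% of the annotated exonic bases of SRSF2, and strand is not stated for the counting, so reads of the pair may not be separated. MFSD11 measured 24.2 and 18.7 FPKM with ascorbate and 22.8 and 19.98 FPKM with both agents, overlapping values well below those of SRSF2.

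SRSF1 measured 73.5 and 76.8 FPKM with ascorbate and 63.4 and 64.1 FPKM with both agents, without overlap, a log2 change of -0.23 (SE 0.06, limma adjusted p = 0.0162). Quantile normalization reduced that estimate to -0.04 (adjusted p = 0.696), and the call was also lost without ascorbate replicate 2 (adjusted p = 0.0869) or without replicate 1 of the combination (adjusted p = 0.0581). Annotated exons of AC015813.2 and AC015813.5 overlap 60.7% of the exonic bases of SRSF1, and neither has a row in the tables.

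SRSF7 measured 57.5 and 63.6 FPKM with ascorbate and 72.3 and 79.05 FPKM with both agents, a log2 change of 0.32 (SE 0.08, limma adjusted p = 0.0126). SRSF4 measured 46.5 and 51.7 FPKM and then 59.7 and 63.98 FPKM, a log2 change of 0.33 (SE 0.08, adjusted p = 0.0116). SRSF11 measured 52.6 and 49.8 FPKM and then 63.5 and 63.8 FPKM, a log2 change of 0.31 (SE 0.08, adjusted p = 0.0167). None of these genes had overlapping groups. Leaving out ascorbate replicate 1 ended the calls of SRSF4 (adjusted p = 0.0774) and SRSF7 (0.0822), leaving out ascorbate replicate 2 that of SRSF11 (0.089), replicate 1 of the combination that of SRSF11 (0.0553), and replicate 2 of the combination those of SRSF4 (0.0641), SRSF7 (0.0726) and SRSF11 (0.0593).

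SRSF3 (119.4 and 126.3 FPKM with ascorbate, 139.8 and 142.5 FPKM with both agents) did not overlap but missed the threshold, with a log2 change of 0.20 (95% interval 0.02 to 0.38, limma adjusted p = 0.0914). Quantile normalization called SRSF3 higher here, at 0.38 (adjusted p = 0.00919). SRSF5 (111.9 and 108.6 FPKM, then 94.9 and 97.1 FPKM) likewise did not overlap and missed it in the other direction, with a log2 change of -0.20 (95% interval -0.38 to -0.02, adjusted p = 0.0923). SRSF6 and SRSF9 had log2 changes of 0.13 and -0.08, with intervals that included 0. SRSF10 stayed at 0.584 and 0.303 FPKM with ascorbate and 0.469 and 0.428 FPKM with both agents.

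The TETi76 effect on SRSF2 differed with ascorbate, by a log2 interaction of -0.63 (SE 0.08, 95% interval -0.82 to -0.45, limma adjusted p = 0.0171). SRSF2 was the only member called in this test, where 0.63% of all genes were called. SRSF1 had an interaction of -0.45 (SE 0.08, adjusted p = 0.0531), which missed the threshold, as did SRSF7 at -0.29 (adjusted p = 0.292) and SRSF11 at 0.29 (adjusted p = 0.313). The SRSF2 call was lost without either ascorbate, DMSO or TETi76 library (adjusted p from 0.0506 to 0.0837), while the estimate stayed between -0.67 and -0.58 over 15 alternatives.

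**Figure D2:**
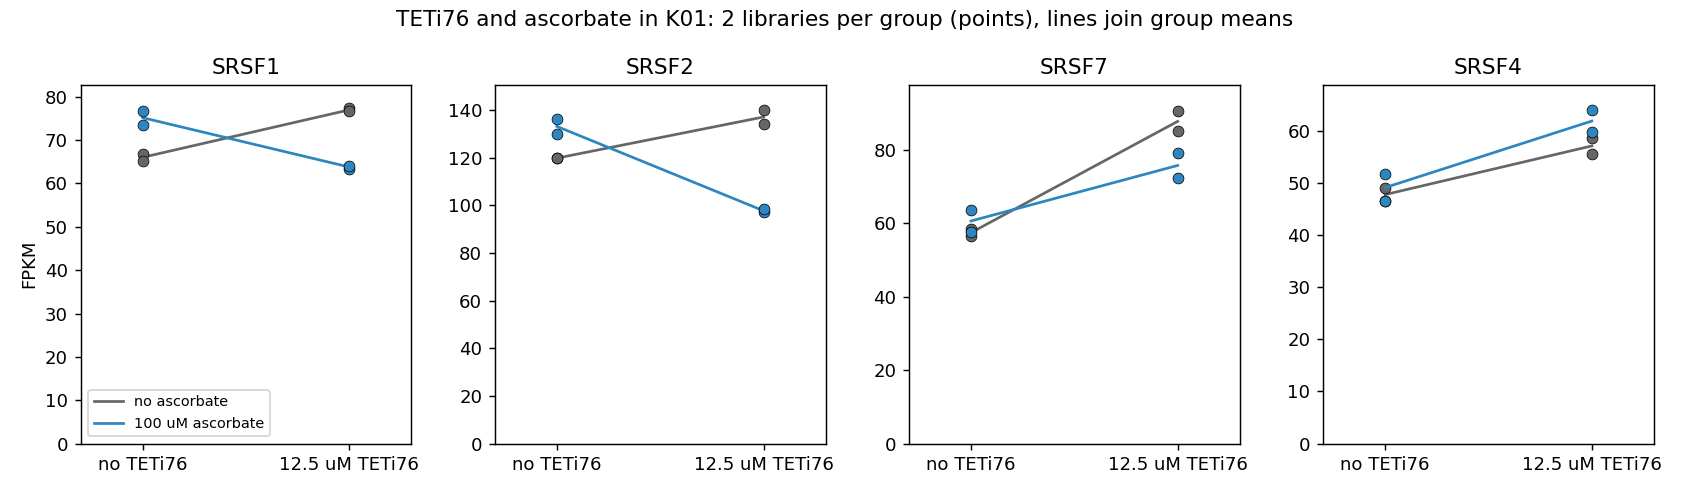
FPKM of SRSF1, SRSF2, SRSF7 and SRSF4 in K01 (vertical axes, from 0) without and with 12.5 µM TETi76, in the absence (grey) or presence (blue) of 100 µM ascorbate, as 2 libraries per group (points) and lines between group means. The lines of SRSF1 and SRSF2 cross, SRSF2 ending at 97.0 and 98.5 FPKM with both agents, while those of SRSF7 and SRSF4 rise with and without ascorbate.

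Ascorbate alone changed no SR gene past the threshold. Against DMSO, 0 of 9 members were called by limma, beside 0.479% of all genes, and 3 had an unadjusted p under 0.05, beside 12% of all genes. SRSF11 measured 60.98 and 69.3 FPKM with DMSO and 52.6 and 49.8 FPKM with ascorbate, its lowest values in K562, with a log2 change of -0.34 (95% interval -0.52 to -0.16, adjusted p = 0.143). SRSF1 and SRSF2 had log2 changes of 0.18 and 0.15 (adjusted p = 0.263 and 0.345), and neither gene had overlapping groups. When ascorbate was added to TETi76, SRSF2 alone was called, beside 0.734% of all genes, with a log2 change of -0.48 (SE 0.06, adjusted p = 0.0127). That SRSF2 call was lost without TETi76 replicate 1 (adjusted p = 0.101), TETi76 replicate 2 (0.0713) or replicate 2 of the combination (0.0694). SRSF1 in the same comparison had a log2 change of -0.27 (adjusted p = 0.089). These comparisons share libraries with those of TETi76 above.

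In the TET2-/- clone K18 the SR genes stood near their K01 levels. SRSF5 was the only 1 of 9 members called, beside 15.1% of all genes. It measured 90.4 and 107.5 FPKM in K01 and 79.5 and 82.1 FPKM in K18, without overlap, a log2 difference of -0.28 (SE 0.08, limma adjusted p = 0.0425). The call was lost without K01 replicate 2 (log2 difference -0.16, adjusted p = 0.240), K18 replicate 1 (adjusted p = 0.187) or K18 replicate 2 (adjusted p = 0.137), and under several settings given with the limits. SRSF2 measured 101.7 and 108.8 FPKM in K18, below both K01 libraries, but missed the threshold (log2 difference -0.19, adjusted p = 0.0652). SRSF7 measured 66.0 and 66.2 FPKM in K18, above both K01 libraries, with a log2 difference of 0.20 (adjusted p = 0.113), and the other 6 tested members lay between -0.03 and 0.16. The K01 libraries with DMSO also serve in the TETi76 and ascorbate comparisons.

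In SIGM5 no SR gene was called after TETi76. By edgeR's quasi-likelihood test 0 of 10 members passed an adjusted p of 0.05, beside 4.13% of 11340 genes, and 0 had an unadjusted p under 0.05, beside 16.7% of all genes. DESeq2 and the other alternatives called 0 members as well. The median log2 change of the 10 members was -0.09, beside 0.00 for all genes, with a range from -0.16 to 0.05. The summed level was 2773 and 3030 CPM with DMSO and 2767 and 2811 CPM with TETi76.

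SRSF7 measured 274.4 and 305.4 CPM with DMSO and 252.0 and 272.5 CPM with TETi76, both treated libraries below both controls. Its log2 change was -0.14 (95% interval -0.36 to 0.07, edgeR adjusted p = 0.536). SRSF3 measured 574.5 and 621.6 CPM and then 565.1 and 546.5 CPM, also without overlap, with a log2 change of -0.11 (95% interval -0.31 to 0.09, adjusted p = 0.644). SRSF2 measured 219.2 and 280.9 CPM with DMSO and 209.96 and 250.4 CPM with TETi76, and SRSF1 measured 713.0 and 729.7 CPM and then 763.9 and 700.8 CPM, all overlapping. SRSF10 stayed below 1 FPKM in K562, where the quantifier is not given, and the part of read assignment in that level was not tested. In SIGM5 it had 21.0 and 32.3 CPM with DMSO and 30.7 and 23.4 CPM with TETi76. The remaining 5 members also overlapped between groups. The interval of SRSF10 was wide, from -0.45 to 0.49, and its log2 change went from -0.25 without DMSO replicate 1 to 0.36 without DMSO replicate 2, with no call in either case.

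**Figure D3:**
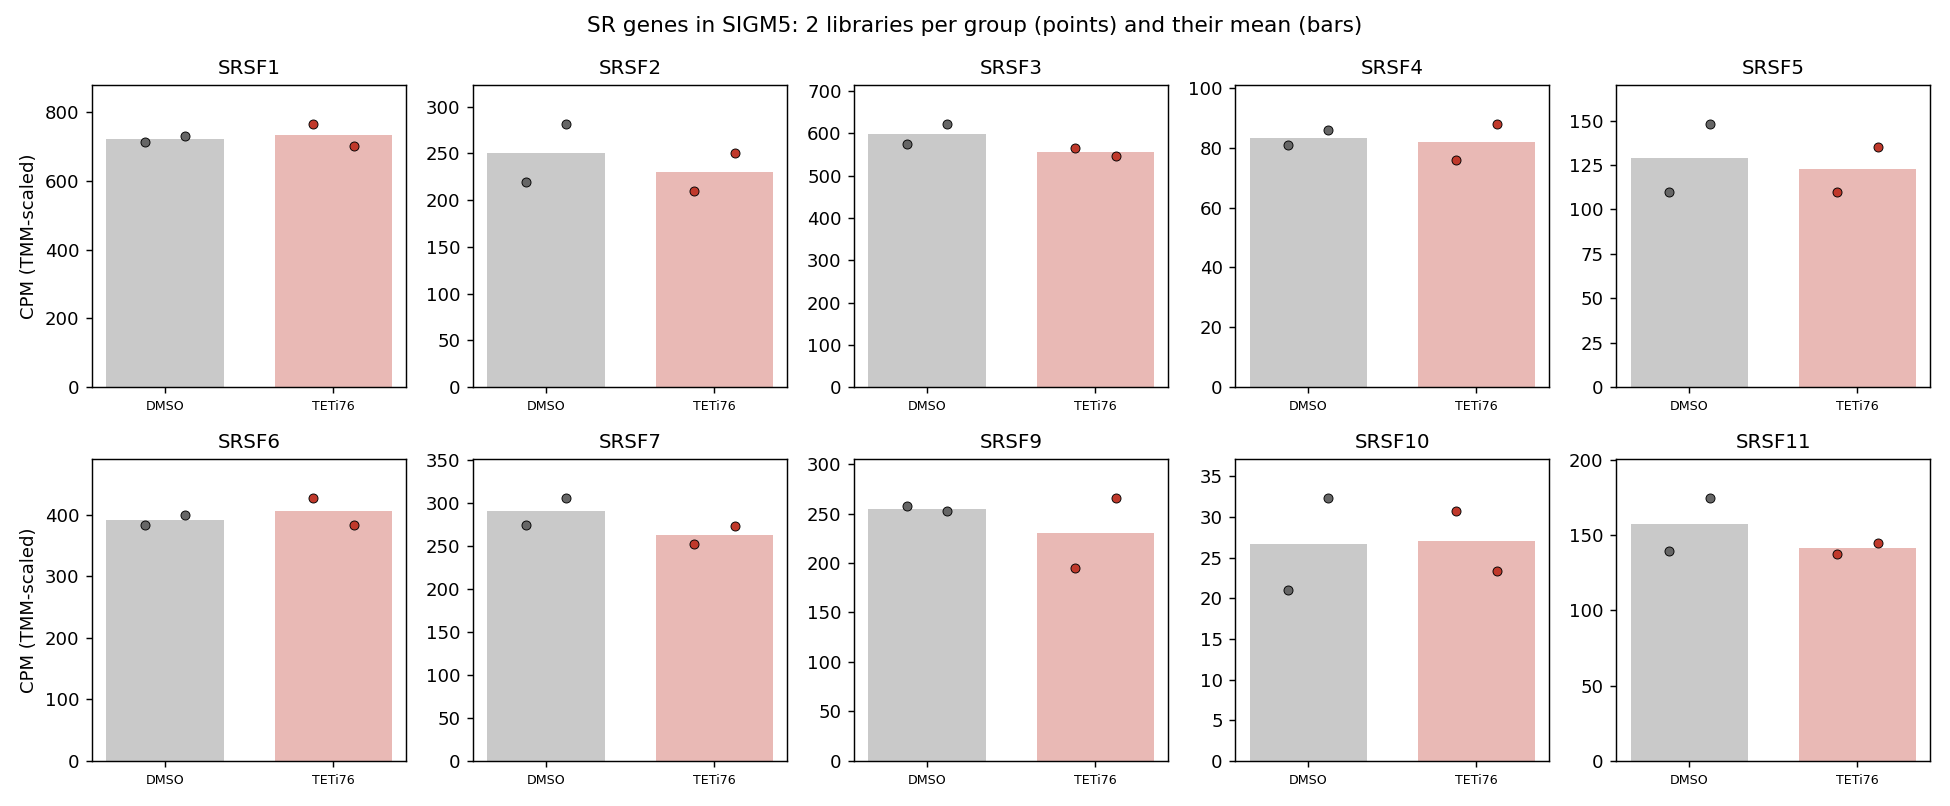
CPM, scaled by TMM, of the 10 SR genes in SIGM5 (vertical axes, from 0, a separate scale per panel) with DMSO (grey) or 12.5 µM TETi76 (red), as 2 libraries (points) and their mean (bars). The groups overlap in 8 genes, and SRSF7 and SRSF3 lie slightly lower with TETi76 without a call.

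The response to TETi76 alone was tested between the lines on the log2 changes, since their tables hold different units. SRSF7 had a difference of -0.75 (SIGM5 minus K01, SE 0.13, Satterthwaite test with Benjamini-Hochberg adjusted p = 0.00014) and SRSF3 of -0.45 (SE 0.13, adjusted p = 0.0161), so 2 of 9 members were called, beside 12% of 9743 genes. The SRSF7 call held in all 18 alternatives. That of SRSF3 was lost without K01 DMSO replicate 1 (adjusted p = 0.0906), K01 TETi76 replicate 2 (0.0885), or SIGM5 TETi76 replicate 1 (0.0854) or 2 (0.113). For SRSF2 the difference was -0.31 (95% interval -0.60 to -0.03, adjusted p = 0.148), which passed the threshold without SIGM5 DMSO replicate 1 (-0.48, adjusted p = 0.00301), under quantile normalization (-0.45, adjusted p = 0.0349) and with a crossed SIGM5 pairing chosen after seeing the data (-0.31, adjusted p = 0.0441). SRSF4, at -0.28 (95% interval -0.56 to 0.00), and SRSF1, at -0.20 (-0.42 to 0.03), missed the threshold.

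**Figure D4:**
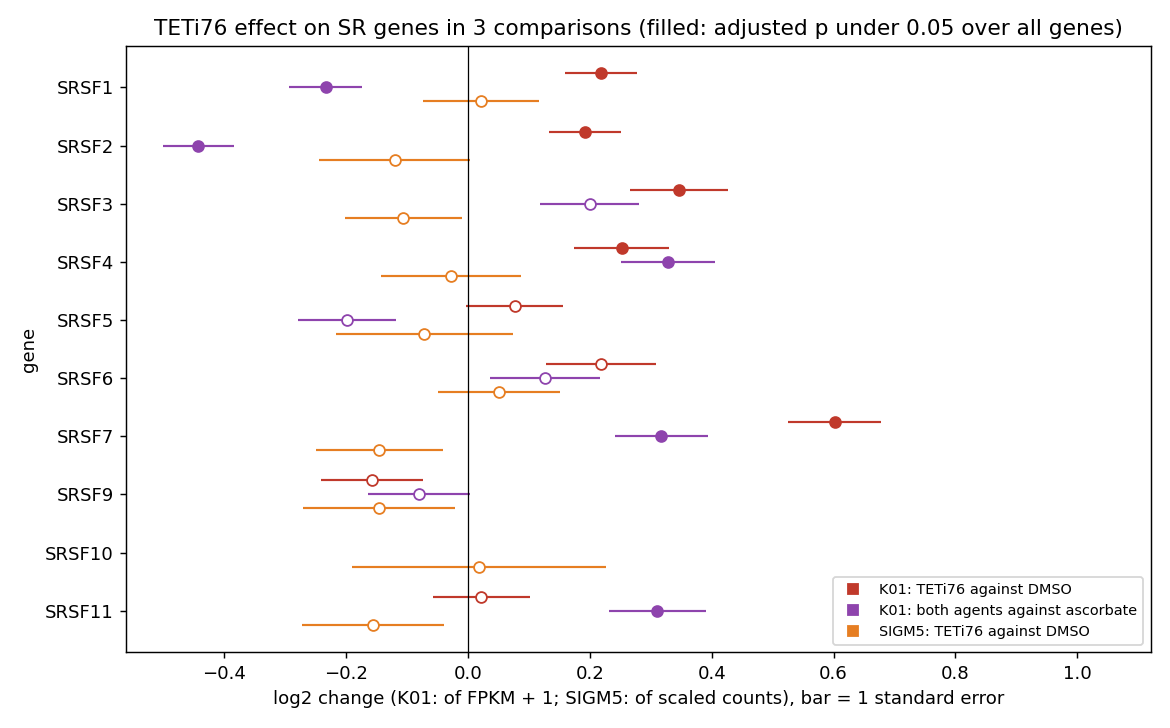
Log2 change ± 1 standard error (horizontal axis) of each SR gene under TETi76 in K01 against DMSO (red), in K01 with ascorbate in both arms (purple) and in SIGM5 (orange), with calls at an adjusted p under 0.05 filled. SRSF7 stands at 0.60, 0.32 and -0.14 in the 3 comparisons, SRSF2 at 0.19, -0.44 and -0.12, and SRSF10 has no K562 test.

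Across the 10 K562 libraries the members did not vary as a single block. Of 36 pairs of the 9 abundant members, SRSF4 with SRSF7 had the highest Pearson correlation (0.81), followed by SRSF6 with SRSF7 (0.76) and SRSF3 with SRSF4 (0.73). The lowest was SRSF3 with SRSF9, at -0.75. Against the mean of the other members, SRSF7 had the highest value (0.82) and SRSF9 the lowest (-0.72). The genes outside the RNA processing lists whose pattern was most like the family mean were CHERP (0.961), SAFB (0.960), NOP56 (0.95), ASAH1 (0.934) and VPS18 (0.924), of 5713 candidates. These are descriptions over libraries that share treatments and a scaling.

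Proteins related to the SR family by an arginine and serine rich domain also rose more often than they fell in K01 with TETi76. Of 31 tested, 9 were called higher and 3 lower by limma, with a median log2 change of 0.23, beside 9.6% and 13.7% of all genes and a median of -0.01. SCAF4, a regulator of transcript termination, went from 24.03 ± 0.0677 to 35.2 ± 0.219 FPKM (SD, n = 2, log2 change 0.53, adjusted p = 0.00133). SON, a scaffold of nuclear speckles, went from 58.9 to 82.5 FPKM (log2 change 0.48, adjusted p = 0.00314) and LUC7L2, a U1 snRNP-associated factor, from 36.7 to 50.5 FPKM (0.45, adjusted p = 0.0145). TRA2A, a splicing activator, fell from 42.1 to 28.3 FPKM (log2 change -0.57, adjusted p = 0.0175). Quantile normalization called 17 higher and 2 lower, and a fit without the filter on low FPKM 6 and 3. Leaving out any 1 of the 4 libraries left 3 to 5 calls higher and 1 to 3 lower, and ended that of LUC7L2 in each case (adjusted p up to 0.0784) and that of TRA2A except without TETi76 replicate 1 (up to 0.111). In SIGM5 0 of 31 were called by edgeR, and 2 had an unadjusted p under 0.05.

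Enzymes that act on SR proteins had 1 call higher and 1 lower in K01 with TETi76 against DMSO. Of 13 kinases, phosphatase subunits and importins tested, CLK1 rose and CLK2 fell, both being kinases of SR proteins, beside 23.3% of all genes called in either direction. CLK1 went from 14.8 ± 1.5 to 23.6 ± 4.39 FPKM (SD, n = 2, log2 change 0.64, limma adjusted p = 0.0131), a call lost without DMSO replicate 1 or TETi76 replicate 2 (adjusted p up to 0.0887). CLK2 went from 28.3 to 20.03 FPKM (log2 change -0.48, adjusted p = 0.00807), a call lost without DMSO replicate 2 (adjusted p = 0.0607). With ascorbate in both arms 2 of 13 were called higher and 3 lower, beside 12.8% and 17.8% of all genes. The changes there were 1.26 for CLK1 (limma adjusted p = 0.00026) and -0.50 for CLK2 (adjusted p = 0.00509). In SIGM5 0 of 14 were called and 1 had an unadjusted p under 0.05 by edgeR, with PPP1CC, the most abundant, at a log2 change of -0.06.

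The hnRNP and PTB proteins, which often act against SR proteins at the same exons, had more calls lower than higher in K01. With TETi76 alone 1 of 28 was called higher and 6 lower by limma, beside 9.6% and 13.7% of all genes, with a median log2 change of -0.15. The 7 calls of 28 were a share near the 23.3% of all genes called in either direction. With ascorbate in both arms 0 were called higher and 17 lower, beside 12.8% and 17.8% of all genes, with a median of -0.24. PTBP1, a repressor of exon inclusion, went from 205.0 ± 14.4 to 156.6 ± 2.33 FPKM (SD, n = 2, log2 change -0.39, adjusted p = 0.00298). HNRNPLL changed by -0.68 (adjusted p = 0.00377), HNRNPUL1 by -0.37 (adjusted p = 0.00282) and PCBP2 by -0.32 (adjusted p = 0.00768, but 0.0504 without TETi76 replicate 2). In the second comparison leaving out 1 library gave 11 or 12 lower calls and 0 or 1 higher, and the other settings gave 7 to 17 lower and 0 to 2 higher.

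Of 38 core spliceosome genes 6 were called higher and 6 lower in K01 with TETi76, beside 9.6% and 13.7% of all genes, with a median log2 change of 0.01. That balance depended on the scaling, with 8 higher and 1 lower after quantile normalization and 6 and 4 after median-ratio scaling, and leaving out 1 library left 1 or 2 higher and 1 to 4 lower. PRPF4 (0.56, limma adjusted p = 0.00937), SF3B4 (0.43, 0.0156) and SNRPA1 (0.40, 0.0228) rose and SNRPA (-0.36, 0.0209) fell, calls that each failed without at least 2 of the libraries, that of SNRPA also after quantile normalization (adjusted p = 0.107). In SIGM5 1 of 37 was called, SNRPD2, a component of the Sm ring, at -0.45 (edgeR adjusted p = 0.0392), lost without TETi76 replicate 1 (adjusted p = 0.859). Of 19 nonsense-mediated decay factors 4 were called higher and 3 lower in K01, beside the same shares of all genes. Median-ratio scaling, quantile normalization and the fit without the filter each gave 4 higher and 1 lower, and leaving out 1 library gave 2 or 3 higher and 1 or 2 lower. SMG1, the kinase that phosphorylates UPF1, changed by 0.61 (limma adjusted p = 0.00442), RBM8A of the exon junction complex by 0.48 (0.00627), NBAS by -0.62 (0.00134) and SMG9, a partner of SMG1, by -0.39 (0.0486, lost in 7 of 11 alternatives). In SIGM5 0 of 19 were called and 2 had an unadjusted p under 0.05 by edgeR, with EIF4A3 at 0.06.

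In K01 with TETi76 against DMSO, an mRNA export gene had the largest change among the tested genes of these lists. NXF1, the export receptor to which SRSF3 and SRSF7 can bind as adaptors, went from 18 ± 0.498 to 44.1 ± 1.16 FPKM in K01 with TETi76 (SD, n = 2), a log2 change of 1.25 (limma adjusted p = 1.1e-05) that was called in all 11 alternatives. SRRT, of the nuclear cap complex, changed by 0.71 (adjusted p = 0.0006), and THOC6 and THOC5 of the THO complex by -0.81 (0.012) and -0.37 (0.0389), so that 2 of 18 were called higher and 5 lower, beside 9.6% and 13.7% of all genes. Leaving out 1 library left 2 higher and 1 or 2 lower, and quantile normalization 2 and 1. Of 27 other splicing regulators 3 were called higher and 8 lower, beside the same shares, but 4 and 3 after quantile normalization and 0 to 2 and 4 or 5 without 1 library. They included MBNL2 (-0.89, adjusted p = 0.00179), RBM15 (0.57, 0.0338), QKI (-0.45, 0.00849) and NONO (-0.38, 0.00189). SRRT, MBNL2 and NONO were called in all 11 alternatives. QKI and THOC6 were lost without DMSO replicate 2 or TETi76 replicate 2 (adjusted p up to 0.0593 and 0.0884), THOC5 without those or DMSO replicate 1 (up to 0.201), and RBM15 without any 1 of the 4 libraries (up to 0.129). Quantile normalization also ended the call of THOC5 (0.0919), and the fit without the filter those of THOC5 (0.0592) and RBM15 (0.0557). In SIGM5 0 of 17 export genes were called by edgeR (2 at an unadjusted p under 0.05, with ALYREF at -0.18), and of 28 other regulators PSPC1 was called at -0.41 (adjusted p = 0.0352), a call lost without TETi76 replicate 1 or 2 (adjusted p up to 0.772).

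**Figure D5:**
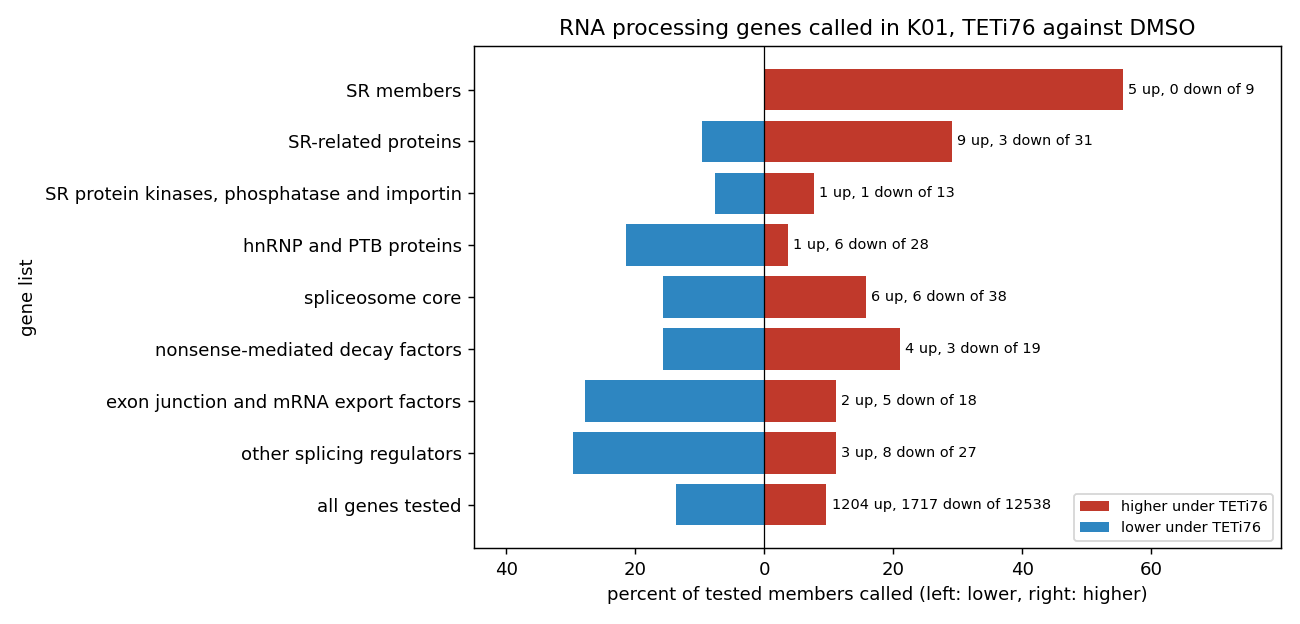
Percent of the tested genes of each list called higher (right, red) or lower (left, blue) in K01 with TETi76 against DMSO, with the counts beside each bar and all 12538 genes tested in the lowest bar. SR genes show 5 calls higher of 9 and none lower, and hnRNP and PTB genes 1 higher and 6 lower of 28.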

How the data were processed

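The authors deposited raw counts per gene for SIGM5 and FPKM for K562 (decimal values per gene length and library size, in a matrix named as counts). FPKM and the single-read form RPKM cannot be told apart here. Per the submitters' processing notes, hg19, STAR, edgeR 3.24.3 and limma 3.38.3 were used, with no role given, and the quantifier and strand setting are not given in the sources used here. Groups came from the labels. The members and the 8 gene lists were chosen with earlier results of these data known.

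For SIGM5, edgeR 4.0.16 was run on the counts after filterByExpr (11340 genes) with TMM scaling and the robust quasi-likelihood fit, and DESeq2 1.42.0 served as an alternative. For K562, log2(FPKM + 1) went into limma 3.58.1 with robust and trend options, so low genes have understated changes, for 12538 genes at 1 FPKM or more in at least 2 libraries, in 1 fit of 10 libraries and 5 groups. The K562 total count per library is not in its table. Left out were 26 entries named by a number (at most 0.0657% of a column sum) and 2268 short-RNA entries (35.4% to 40% of it). The line difference is that of separately fitted log2 changes, with Satterthwaite degrees of freedom, over 9743 genes. Tests were two-sided, and p-values were adjusted over all genes by Benjamini-Hochberg at a threshold of 0.05. An exact permutation test of 2 against 2 libraries cannot go below 0.333. Intervals are 95% and cover the spread between libraries. The scripts were tested on simulated data. Named list genes were the up to 4 called in K01 with TETi76, and up to 2 in SIGM5, with the largest absolute change, or else the most abundant. Like-pattern genes were the 5 with the highest Pearson correlation with the mean centred member profile, at a mean of at least 10 FPKM. Pearson correlations between replicates were 0.976 to 0.9875 in K562 and 0.9938 and 0.9963 in SIGM5. The single-sample files equalled the matrices in all 14 libraries. Promoter windows were matched by symbol to RefSeq for 9 of 10 members, all but SRSF2, and transcripts to GENCODE v29. Alternatives were another pseudocount, filter, scaling, tool, a replicate block, only the groups compared, and each replicate left out. Some items are not reported here.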

Additional observations from a re-analysis of the deposited data

Results flagged for a closer look

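SRSF2, SRSF7 and SRSF3 had a response to TETi76 that differed between conditions by a test of the difference itself. For SRSF2 the interaction of TETi76 with ascorbate in K01 was -0.63 on the log2 scale. The TETi76 effect in SIGM5 minus that in K01 was -0.75 for SRSF7 and -0.45 for SRSF3.

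Among the named genes of the other lists, the difference between lines passed the same test, as SIGM5 minus K01. It was negative for CLK1 (-0.77), LUC7L2 (-0.65), NXF1 (-1.09), RBM8A (-0.54), SCAF4 (-0.58), SNRPA1 (-0.47) and SRRT (-0.88). It was positive for HNRNPLL (0.77), NBAS (0.61), PCBP2 (0.35) and QKI (0.54). The cause of these differences was not tested.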

How the results depend on the processing

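Of 882 member values under alternatives, 40 had the opposite sign to the reported one, none called in either fit. The reported values were at most 0.16 in size and the opposite ones at most 0.25, the latter for SRSF10 in SIGM5 without DMSO replicate 1. Without the filter on low FPKM, 3 members were called in K01 with TETi76 (SRSF2 and SRSF4 were lost, adjusted p = 0.0558 and 0.0599) and 0 in K18. With only the groups compared in the fit, member calls fell to 2 (TETi76), 3 (TETi76 with ascorbate in both arms), 0 (ascorbate added to TETi76) and 0 (K18), and gene calls to 13 (ascorbate), 5 (ascorbate added to TETi76) and 29 (interaction). In K18, median-ratio scaling left 0 members called and quantile normalization 2, SRSF1 and SRSF7. Quantile normalization also changed the share called higher, from 694 of 1172 genes to 552 of 1160 between lines and from 35 of 79 to 38 of 64 for the interaction. In SIGM5, 738 genes were called without the filter on low counts. The cause of these changes was not tested, beside the fewer samples or more genes that each alternative holds by construction.

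Leaving out each replicate gave 1 to 2 members called and 1669 to 1787 genes with TETi76, 2 to 3 members and 2694 to 2919 genes with ascorbate in both arms, 0 members and 0 to 6 genes with ascorbate alone, and 0 to 1 members and 2 to 62 genes when ascorbate was added to TETi76. It gave 0 to 1 members and 720 to 966 genes in K18, 0 to 1 members and 0 to 71 genes for the interaction, 0 members and 110 to 1206 genes in SIGM5, and 1 to 3 members and 522 to 1483 genes between lines.

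Deviations of same-numbered K562 libraries correlated at -0.02 to 0.05. A low correlation does not show that such libraries had no batch in common, and a shared batch was not tested. With the replicate block, 0 members were called in K18 (SRSF5 adjusted p = 0.0516), SRSF2 lost its call with TETi76 in K01 (adjusted p = 0.0604), and 46 genes were called for the interaction. With the SIGM5 replicate block PSPC1 lost its call (-0.41, adjusted p = 0.0687). In SIGM5 the deviations correlated at -0.24, and a crossed pairing chosen after seeing the data called 1291 genes, 0 of them members. Keeping the short-RNA entries, also chosen after seeing the data, changed no member call. Of 27 list genes named as called in K01, 12 were called under every alternative, and of the 2 in SIGM5, 0 were. SRSF10 did not pass the K562 filter, so no test of it is given there, and 2 libraries per group limit every interval.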
